A study of Mus musculus with 48 samples.

Results

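Hspa5, Hsp90b1, Calr, Hyou1, Pdia4, Creld2, Dnajb9, Sdf2l1, Herpud1 and Xbp1 are 10 genes of protein folding in the endoplasmic reticulum (ER) and of the unfolded protein response (UPR). They were taken by gene symbol from 6 tissue tables of mouse mRNA sequencing, which together listed 15541 genes. All 10 genes were listed in every table, and all 10 passed the minimum of 1 CPM, the reads of a gene relative to all reads of its library, as a mean over the libraries of every tissue.

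The mice were male C57Bl6 mice made obese by a high fat diet. One group underwent Roux-en-Y gastric bypass (RYGB), which leaves a gastric pouch that empties straight into jejunum, so that food no longer passes through most of the stomach or the duodenum. The other group underwent sham surgery. Both groups then received an elemental liquid diet, were fasted overnight and were killed at 10 am on day 9. There were 48 libraries: 4 RYGB and 4 sham libraries each for liver, subcutaneous white adipose tissue (WAT) and gastrocnemius muscle, 3 RYGB and 4 sham libraries each for duodenal and jejunal villi, and 5 and 5 for ileal villi. Villi were scraped off after a short stay in ice-cold EDTA, so they hold epithelium together with whatever cells lie in the villus core. The labels did not say which surgical limb the jejunal villi came from, nor whether the sham mice were matched for body weight.

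Proteins that are to be secreted or placed in membranes fold in the ER with the help of chaperones. When unfolded proteins accumulate there, the sensors IRE1, PERK and ATF6 start the UPR, in which XBP1 and cleaved ATF6 switch on genes for chaperones, folding enzymes and the degradation of misfolded proteins. The intestinal epithelium, with its mucus-secreting goblet cells and its Paneth cells, and the liver, which makes most plasma proteins, are known to depend on this system.

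The DNA element through which ATF6, together with the factor NF-Y, acts on chaperone genes is the ER stress response element (ERSE). It was searched on both strands as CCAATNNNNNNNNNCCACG in RefSeq promoters (GRCm38.p6), from 250 bases before to 50 bases after the transcript start. A promoter was given for 9 of the 10 genes, Hyou1 being the other one. The letters of ERSE were present in 4 of these 9 promoters, those of Hspa5, Hsp90b1, Calr and Creld2, against 0.119% of 32851 promoters of the same length. The related ERSE-II, ATTGGNCCACG, was present in the promoter of Herpud1 and in 0.0365% of all promoters. The UPR element TGACGTGG was present in none of the 9 and in 0.676% of all. ERSE and ERSE-II did not overlap one another in any of the genes. The sequences below are shown because these 5 promoters carry the elements. They are written 5′ to 3′ along the gene's strand and end at the base before the earlier of the RefSeq and the GENCODE start, with the element in capitals.
Hsp90b1 (chr10:86705510-86705694, minus strand): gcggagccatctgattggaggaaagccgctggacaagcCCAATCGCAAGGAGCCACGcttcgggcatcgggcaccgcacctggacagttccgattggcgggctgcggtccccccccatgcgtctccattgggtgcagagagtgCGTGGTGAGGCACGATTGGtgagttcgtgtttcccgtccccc
Calr (chr8:84846935-84847181, minus strand): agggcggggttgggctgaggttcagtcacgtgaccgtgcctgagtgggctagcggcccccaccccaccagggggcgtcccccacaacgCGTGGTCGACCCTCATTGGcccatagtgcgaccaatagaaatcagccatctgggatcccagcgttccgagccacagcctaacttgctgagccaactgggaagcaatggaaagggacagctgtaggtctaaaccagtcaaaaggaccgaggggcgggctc
Creld2 (chr15:88819396-88819645, plus strand): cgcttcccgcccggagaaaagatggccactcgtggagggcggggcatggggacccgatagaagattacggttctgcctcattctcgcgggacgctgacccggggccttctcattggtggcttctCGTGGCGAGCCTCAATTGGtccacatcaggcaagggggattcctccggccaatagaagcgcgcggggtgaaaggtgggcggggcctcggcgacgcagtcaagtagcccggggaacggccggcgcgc
Herpud1 (chr8:94386179-94386428, plus strand): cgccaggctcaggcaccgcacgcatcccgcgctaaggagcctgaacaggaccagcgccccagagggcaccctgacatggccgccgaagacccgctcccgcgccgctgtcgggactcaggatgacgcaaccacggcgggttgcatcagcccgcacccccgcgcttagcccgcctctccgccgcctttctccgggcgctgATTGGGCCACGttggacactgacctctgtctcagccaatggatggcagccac
Hspa5 (chr2:34772019-34772048, plus strand): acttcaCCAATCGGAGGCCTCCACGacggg
The Hsp90b1 promoter held the element 2 times, in opposite orientations, and in Calr and Creld2 it lay in reverse orientation. For Hspa5 only a window of 30 bases is shown, because the GENCODE gene starts 120 bases before the RefSeq start and the element lies between both. The elements were known beforehand as elements of such genes, so the shares of all promoters beside them are a description and no test. A match of letters does not show that a factor was bound.

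**Figure D1:**
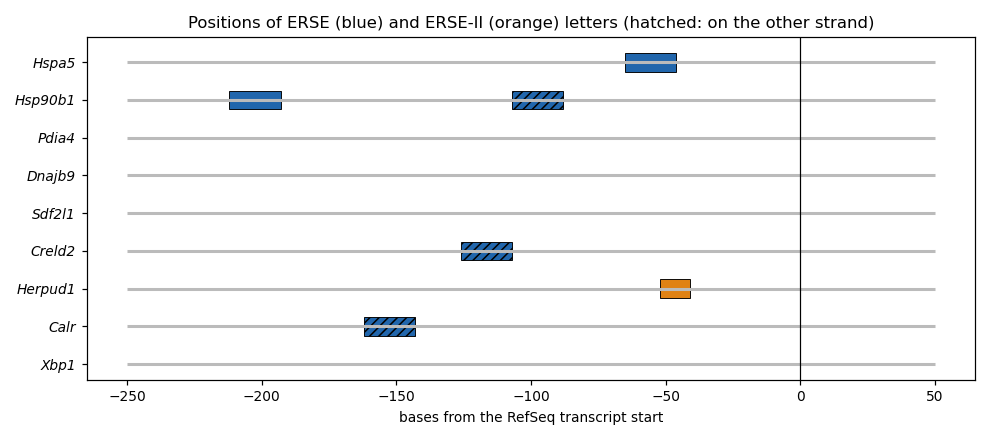
Positions of the ERSE and ERSE-II letters in 9 promoters (rows, by gene), in bases from the RefSeq transcript start, with hatched boxes for the reverse orientation. Elements lay between base -212 and base -42 in Hspa5, Hsp90b1, Creld2, Herpud1 and Calr, and the rows of Pdia4, Dnajb9, Sdf2l1 and Xbp1 have none.

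Depth was not known, since the tables hold CPM and no counts, and the listed values summed to between 925122 and 998777 per library. Hepatocyte markers summed to between 80470 and 118800 CPM in liver, skeletal muscle markers to between 113400 and 191900 CPM in muscle, adipocyte markers to between 8948 and 25510 CPM in WAT, and enterocyte markers to between 27510 and 55240 CPM in the villi. In WAT all 8 B cell markers rose after RYGB, with a summed level of 1054 to 2827 CPM against 13.0 to 24.0 CPM in sham. In the duodenum the acinar genes Cela1 and Rnase1, which are the only 2 of 11 pancreatic markers listed there, summed to 8056 CPM in sham 2, 2718 CPM in sham 1 and 1112 CPM in RYGB 3, and to between 10.7 and 21.3 CPM in the other libraries. In the ileum all 5 RYGB libraries were sequenced in lane 1 and the sham libraries in lanes 2 and 3, and the effects of lane and of surgery cannot be told apart there. Nothing in the labels said whether each library came from a separate mouse, so that p-values measure the spread between these libraries. The tables had been normalized separately, and no test between tissues was made.

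In sham mice the genes formed a wide range of levels, and most were highest in liver and lowest in muscle. Hspa5, the HSP70 chaperone of the ER lumen also known as BiP, was at 1002 ± 158 CPM (SD, n = 4) in liver and 187 ± 49.4 CPM (n = 4) in muscle, and the ranges of liver and of the next tissue, duodenum, did not overlap. Its order was liver, duodenum, WAT, ileum, jejunum and muscle, and the ranges of duodenum and WAT, of WAT and ileum, and of ileum and jejunum overlapped. Pdia4, a protein disulfide isomerase, had the largest ratio of its highest to its lowest tissue mean, 18.6 (liver over muscle), and in WAT it reached 130 ± 23.2 CPM, above every sham library of the 3 gut segments. Of the 10 genes, 8 were highest in liver and lowest in muscle. The exceptions were Dnajb9, highest in duodenum at 85.7 ± 24.7 CPM (n = 4), and Herpud1, lowest in WAT at 71.1 ± 2.90 CPM (n = 4). Per kilobase of exon, Calr was the most abundant of the 10 genes in sham liver, at 304.5 CPM per kb, and Creld2 the least abundant at 21.5 CPM per kb.

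**Figure D2:**
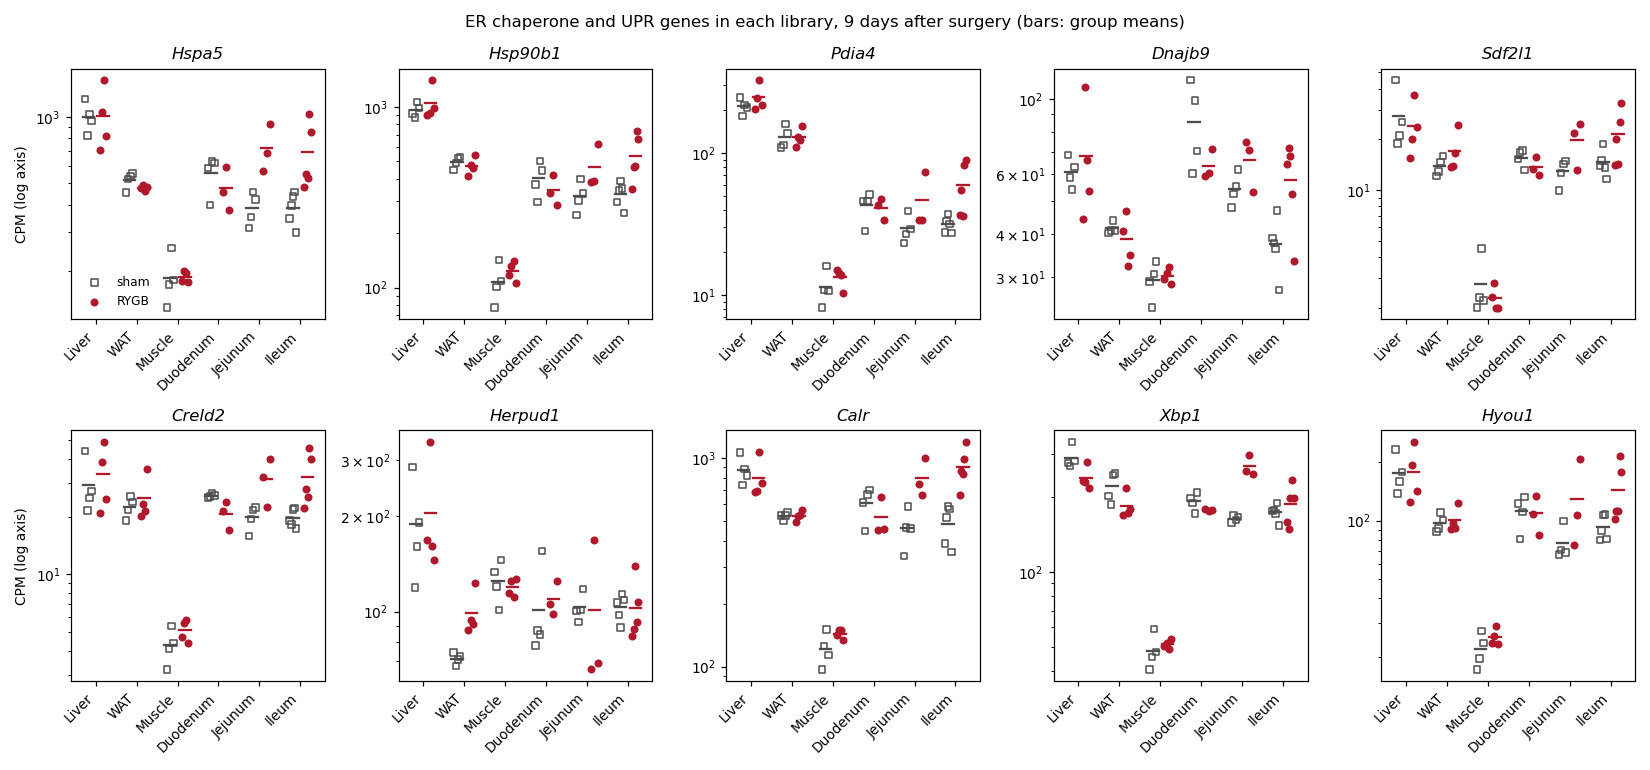
CPM (log axis) of each of the 10 genes in all 48 libraries, by tissue, with open squares for sham, filled circles for RYGB and bars for group means. In the jejunum and the ileum the RYGB circles of Hspa5 and Calr sit above all sham squares, and in WAT those of Herpud1 do.

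The comparison of RYGB with sham was made within each tissue by limma on log2(CPM + 1), with Benjamini-Hochberg adjustment over all genes tested in that tissue, and a gene was called at an adjusted p under 0.05. In the jejunum 3 of the 10 genes rose, Hspa5, Calr and Xbp1, and the share of all genes called higher there was 4.64%. In the ileum 2 of the 10 rose, Hspa5 and Calr, against 2.29% of all genes. In WAT 1 of the 10 rose, Herpud1, against 23.5% of all genes, a share above that of the 10 genes. None was called in liver, where 8.61% of all genes were, in muscle, where the share was 0%, or in the duodenum, where it was 0.00922%. At an unadjusted p under 0.05 there was 1 of the 10 in liver (26.9% of all genes), Xbp1, and there were 0 in muscle (14.6%) and 0 in the duodenum (18.8%).

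The direction was shared by most of the genes in the jejunum and ileum. The log2 difference was positive for 9 of 10 genes in each, with a median of 0.60 in the jejunum and 0.61 in the ileum, while the medians of all genes were -0.04 and -0.09. Unadjusted p was under 0.05 with a higher RYGB level for 6 of 10 genes in the jejunum (10.8% of all genes) and 7 of 10 in the ileum (7.86%). Such counts are not of independent genes, since Hspa5, Hsp90b1, Pdia4, Calr and Hyou1 also varied together within groups. All RYGB libraries exceeded all sham libraries for 4 genes in the jejunum (9.75% of all genes), Hspa5, Calr, Xbp1 and Creld2, and for 3 in the ileum (2.42%), Hspa5, Calr and Creld2. After median-ratio scaling of the libraries 6 of the 10 genes were called in the ileum, Hsp90b1, Pdia4, Creld2 and Hyou1 joining Hspa5 and Calr, where 5.12% of all genes were called higher. Scaling moved the share of higher genes among all genes called from 28.7% to 41.7% in the ileum, from 63.1% to 52.0% in WAT and from 81.7% to 65.1% in liver. In the other tissues the medians lay near those of all genes: 0.03 against 0.13 in liver, 0.00 against 0.11 in WAT and 0.16 against 0.05 in muscle. In the duodenum the median was -0.19 against 0.12, with 9 of 10 genes below 0. In such bulk samples more cells of a type and more RNA per cell cannot be told apart.

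**Figure D3:**
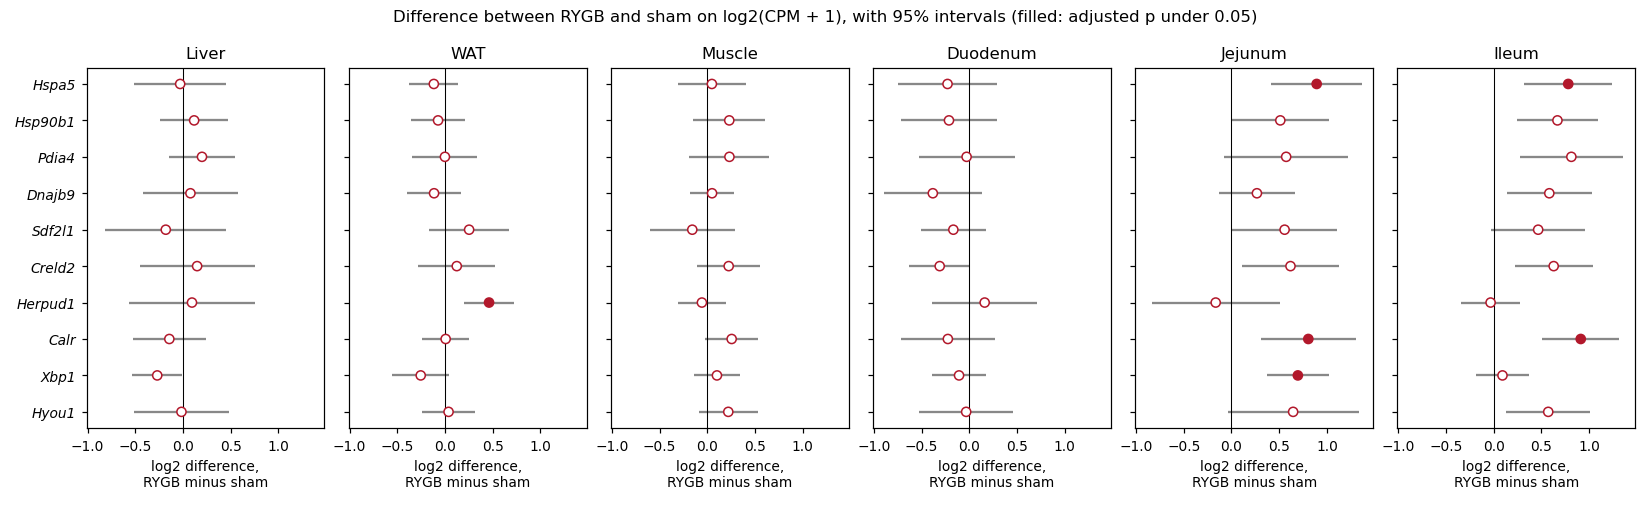
Log2 difference, RYGB minus sham, on log2(CPM + 1) for the 10 genes (rows) in 6 tissues (panels), with 95% intervals from limma and filled points at an adjusted p under 0.05. Filled points are Hspa5, Calr and Xbp1 in the jejunum, Hspa5 and Calr in the ileum and Herpud1 in WAT.

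Hspa5 (GRCm38 chr2:34771970-34777547, plus strand) rose in both lower gut segments. In the jejunum it was at 567, 682 and 926 CPM in the 3 RYGB libraries and at 314.5, 352, 457 and 422 CPM in the 4 sham libraries. The lowest RYGB library was above the highest sham library, and the fitted fold was 1.86 (log2 difference 0.89, SE 0.21, adjusted p = 0.0295). Leaving out RYGB 2, RYGB 3, sham 1 or sham 2 raised the adjusted p above the threshold, at most to 0.088. In the ileum the RYGB libraries held 483, 554, 526, 1030 and 856 CPM and the sham libraries 347, 397, 436, 456 and 299.7 CPM. The groups did not overlap there either, and RYGB 4 and RYGB 5 stood well above the other 3 RYGB libraries. The fold was 1.72 (log2 difference 0.78, SE 0.21, adjusted p = 0.0446), and without these 2 libraries, whose removal had to lower it, the log2 difference was 0.44 (adjusted p = 0.0656). The call held without RYGB 1 or RYGB 3 and was lost without any other single library (adjusted p up to 0.103). In the duodenum the means were 476 ± 106 CPM (SD, n = 3) after RYGB and 558 ± 107 CPM (n = 4) in sham, a log2 difference of -0.23 with an interval of -0.74 to 0.29.

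Calr (chr8:84841850-84846934, minus strand) encodes calreticulin, a calcium-binding lectin chaperone for glycoproteins, and had the lowest adjusted p of the 10 genes in the ileum. Its ileal RYGB libraries held 662, 865, 834.5, 985 and 1192 CPM and its sham libraries 389, 517.5, 584, 568 and 353 CPM. All 5 RYGB libraries lay above all 5 sham libraries, with a fold of 1.88 (log2 difference 0.91, SE 0.19, adjusted p = 0.0153), and the call held when any 1 library was left out. In the jejunum it was at 748, 666 and 998 CPM after RYGB and at 339, 464.5, 583 and 458 CPM in sham. These groups did not overlap, and the fold was 1.75 (log2 difference 0.81, SE 0.22, adjusted p = 0.0486). This call was close to the threshold and was lost when RYGB 1, 2 or 3 or sham 1, 2 or 4 was left out (adjusted p up to 0.128).

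Hsp90b1 encodes GRP94, the HSP90 chaperone of the ER, which folds integrins and Toll-like receptors. In the ileum it was at 350.0, 466, 471, 733 and 664 CPM after RYGB and at 297, 345, 389.7, 353 and 259.5 CPM in sham. Only RYGB 1 fell within the sham range, and the log2 difference was 0.67 (interval 0.25 to 1.09, adjusted p = 0.0547). In the jejunum the RYGB libraries held 383, 387 and 624 CPM and the sham libraries between 252 and 399.9 CPM. RYGB 3 alone was above the sham range, and the log2 difference was 0.51 (adjusted p = 0.201).

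Hyou1, also called GRP170, is a nucleotide exchange factor for BiP. Its ileal RYGB libraries held 102, 112, 112, 213 and 177 CPM against 79.5, 89.0, 107, 107 and 80.4 CPM in sham, and its jejunal RYGB libraries 75.0, 107 and 207 CPM against 66.9 to 99.7 CPM. The groups overlapped through RYGB 1 in each segment. The log2 differences were 0.57 in the ileum (adjusted p = 0.0958) and 0.65 in the jejunum (adjusted p = 0.232).

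Pdia4 had in the ileum a log2 difference of 0.81 (interval 0.28 to 1.35, adjusted p = 0.0623), with 36.6, 55.3, 35.9, 82.3 and 89.3 CPM after RYGB and 27.6, 33.3, 37.2, 31.8 and 27.4 CPM in sham. RYGB 1 and RYGB 3 lay within the sham range and the other 3 above it. In the jejunum RYGB 3 held 73.2 CPM, while the other RYGB libraries held 34.0 and 33.6 CPM and the sham libraries between 23.3 and 39.0 CPM, and the log2 difference was 0.57 (adjusted p = 0.262).

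Creld2, a small ER protein with disulfide isomerase activity, did not pass the test although its groups were apart in all 3 gut segments. In the jejunum it was at 32.1, 22.5 and 39.9 CPM after RYGB and at 15.9, 19.4, 21.6 and 22.3 CPM in sham, and in the ileum at 22.3, 27.7, 25.2, 45.3 and 39.8 CPM against 19.1, 18.2, 21.8, 22.2 and 17.3 CPM. In both segments the lowest RYGB library was only just above the highest sham library. The log2 differences were 0.62 (adjusted p = 0.122) and 0.63 (adjusted p = 0.0609). In the duodenum it was at 21.3, 23.9 and 17.0 CPM after RYGB and at 25.1, 25.5, 26.5 and 25.8 CPM in sham. There every RYGB library lay below every sham library, as in 2.93% of all genes, with a log2 difference of -0.31 (adjusted p = 0.279).

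Sdf2l1 and Dnajb9 encode partners of the ER HSP70 system. Sdf2l1 works in a complex with the J protein Dnajb11, and Dnajb9 (ERdj4) brings BiP to the sensor IRE1. Sdf2l1 was at 21.8, 13.2 and 24.6 CPM after RYGB in the jejunum and at 9.9, 12.6, 14.3 and 14.8 CPM in sham, a log2 difference of 0.56 (adjusted p = 0.20). In the ileum its log2 difference was 0.47 (adjusted p = 0.209), with 14.1 to 32.8 CPM against 11.6 to 18.7 CPM.

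Dnajb9 differed from the other chaperone genes in which ileal libraries were high. It was at 64.2, 71.5, 67.7, 52.7 and 33.4 CPM after RYGB and at 39.1, 37.8, 36.3, 47.0 and 27.5 CPM in sham. RYGB 5, which was among the highest libraries for Hspa5 and Calr, was the lowest RYGB library for Dnajb9 and lay within the sham range. The log2 difference was 0.58 (adjusted p = 0.0946). In the jejunum RYGB 3, the highest library for Hspa5, was likewise the lowest of its group for Dnajb9 at 53.2 CPM, against 74.5 and 70.5 CPM in the other RYGB libraries and 47.9 to 62.0 CPM in sham.

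Xbp1 (chr11:5520659-5525893, plus strand) encodes the transcription factor that IRE1 activates by splicing its mRNA, and a gene-level value does not separate spliced from unspliced mRNA. In the jejunum it was at 257, 297 and 249 CPM after RYGB and at 159, 169, 163 and 167 CPM in sham. The sham libraries were close to one another and all RYGB libraries stood above them, with a fold of 1.62 (log2 difference 0.70, SE 0.15, adjusted p = 0.0178). The call was lost without RYGB 2, sham 1 or sham 3 (adjusted p up to 0.0898). In the ileum it was at 159, 149, 198, 234 and 199 CPM after RYGB and at 176, 178, 172, 190.4 and 154 CPM in sham. These groups overlapped, and the log2 difference was 0.09 with an interval of -0.19 to 0.37 (adjusted p = 0.682). Whether the difference in the jejunum was unlike that in the ileum was not tested. In liver Xbp1 was at 233, 231, 279 and 218 CPM after RYGB and at 275, 268, 335 and 280.5 CPM in sham, a log2 difference of -0.27 (adjusted p = 0.175).

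Herpud1 (chr8:94386438-94395377, plus strand), a membrane protein of the HRD1 complex for ER-associated degradation, did not share the direction of most chaperones in the gut. In the jejunum it was at 65.7, 168 and 68.8 CPM after RYGB and at 100.5, 92.6, 101 and 118 CPM in sham. The RYGB libraries lay on both sides of the sham range, and the log2 difference was -0.17 (adjusted p = 0.791). In the ileum the log2 difference was -0.03 with an interval of -0.34 to 0.27, with 83.9 to 139 CPM after RYGB and 89.0 to 113 CPM in sham. In WAT it rose, from 74.2, 67.3, 70.7 and 72.1 CPM in sham to 87.7, 93.7, 91.6 and 123 CPM after RYGB. All 4 RYGB libraries were above all 4 sham libraries, as in 26.1% of all genes of WAT, and the fold was 1.38 (log2 difference 0.46, SE 0.12, adjusted p = 0.0176). Leaving out sham 2 gave an adjusted p of 0.0511. After median-ratio scaling the log2 difference of Herpud1 was 0.36 (adjusted p = 0.0172), and Xbp1 was lower by a log2 difference of -0.36 (adjusted p = 0.0467, against 0.15 without scaling). The 8 B cell markers summed to 1054, 1640, 2002 and 2827 CPM in the RYGB libraries in the order 1 to 4, and RYGB 4 had both the highest sum and the highest Herpud1 value. The plasma cell markers, of which 9 of 11 were listed, summed to 1209 to 4243 CPM after RYGB and 156 to 425 CPM in sham. Ighm and Igkc had the highest means after RYGB, 1392 and 562 CPM. Of the 9 markers 5 were called higher, where 23.5% of all genes were. Sdc1 was called lower (-1.23, adjusted p = 0.0055), and Prdm1, Derl3 and Igha were not called. The part of B cells and plasma cells in the Herpud1 difference was not tested. The other 9 genes had log2 differences between -0.26 and 0.25 in WAT.

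In the jejunum RYGB 2 was sequenced in lane 2 and all other libraries in lane 1. Within lane 1, with 2 RYGB and 4 sham libraries, the log2 differences were 0.92 for Hspa5, 0.93 for Calr and 0.62 for Xbp1. The fit with lane as a covariate gave these same log2 differences and is no separate check. In it none of the 10 genes was called, at adjusted p = 0.0887, 0.0817 and 0.0904 for these 3 genes, and 469 of all 10854 genes were.

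Some markers of secretory cells also rose in the jejunum and ileum. Of all genes 4.64% were called higher and 5.17% lower in the jejunum, and 2.29% higher and 5.68% lower in the ileum. All 11 goblet and Paneth cell markers were listed in the villi. In the jejunum 4 of the 11 rose after RYGB, among them the Paneth cell genes Mmp7 (log2 difference 2.41, adjusted p = 0.00555) and Lyz1 (2.05, adjusted p = 0.0122) and the goblet cell gene Spink4 (1.42, adjusted p = 0.0193), and the summed level was 6559 to 10040 CPM against 5994 to 8920 CPM in sham. In the ileum 2 of the 11 rose, the goblet cell genes Clca1 (0.83, adjusted p = 0.00878) and Spink4 (0.75, adjusted p = 0.0421), with sums of 8054 to 9866 CPM against 6448 to 9317 CPM. The sums of the groups overlapped in all 3 gut segments, and the medians of the 11 markers were 0.70 in the jejunum and 0.41 in the ileum. In the duodenum, where 9 of the 10 genes had a negative log2 difference, all 11 markers had a positive one, with a median of 0.64 and sums of 8295 to 12500 CPM against 3594 to 10500 CPM, and none was called. Muc2, the main mucin of goblet cells, had log2 differences of 0.36 in the jejunum (adjusted p = 0.354) and 0.08 in the ileum (adjusted p = 0.842). Of the 11 plasma cell markers 6 were listed in either segment, Mzb1 and Derl3 not among them, with sums of 86.5 to 213 CPM after RYGB against 49.5 to 108 CPM in the jejunum and 74.8 to 111 CPM against 70.8 to 99.6 CPM in the ileum. Of these, Sdc1, which epithelial cells also express, rose in the jejunum (1.09, adjusted p = 0.0077) and Ighm fell by 0.89 on the log2 scale (adjusted p = 0.0383). No B cell marker was listed there. Among 8 enterocyte markers 1 fell in each segment, the lactase gene Lct, by 1.46 on the log2 scale in the jejunum (adjusted p = 0.00525) and by 0.68 in the ileum (adjusted p = 0.0261). The part of these cells in the chaperone differences was not tested.

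In the duodenum no gene of the 10 passed the test. Hspa5, Hsp90b1, Calr and Dnajb9 had log2 differences of -0.23, -0.21, -0.23 and -0.38, with adjusted p between 0.386 and 0.622. The libraries with high Cela1 and Rnase1 were RYGB 3, sham 1 and sham 2. Without them the log2 differences of these 4 genes were -0.26, -0.34, -0.33 and -0.47. In that smaller fit 0 of all 10798 genes tested were called, so the lack of a call does not set these 4 genes apart. Sham 2 was the lowest sham library for Hspa5, Hsp90b1, Pdia4, Dnajb9, Calr and Hyou1. In muscle the largest log2 difference was that of Calr, 0.26, with 142, 149.8, 149 and 134.5 CPM after RYGB and 96.8, 126, 151 and 114 CPM in sham (adjusted p = 0.384). In liver RYGB 3 was the highest RYGB library for Hspa5 (1467 CPM) and Hsp90b1 (1412 CPM), and the sham libraries lay within the RYGB range of Hspa5, 708 to 1467 CPM.

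The genes were then set beside 6 lists of related genes. The shares of all genes called higher, beside which their counts stand, were 4.64% in the jejunum, 2.29% in the ileum and 23.5% in WAT. Among other ER folding factors, 20 of 21 were listed in the villi, and 5 of the 20 rose in the ileum and 1 in the jejunum, with medians of 0.30 and 0.22. The oxidase Ero1l, which passes electrons from protein disulfide isomerases to oxygen, rose in both, with log2 differences of 1.21 in the jejunum (adjusted p = 0.0072) and 0.86 in the ileum (adjusted p = 0.025). In the ileum the disulfide isomerase Pdia6 (1.19, adjusted p = 0.0301) and the BiP exchange factor Sil1 (0.87, adjusted p = 0.0338) rose as well. In the list of ER translocation and secretory load, 3 of 19 rose in the ileum, the translocon-associated Ssr2 (0.58), the stabilizer Serp1 (0.45) and the KDEL receptor Kdelr2 (0.38), with a median of 0.31. In the jejunum none of the 19 rose, and Kdelr3 fell by 2.03 on the log2 scale (adjusted p = 0.0314), as 5.17% of all genes did.

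Of 10 sensors and processing enzymes of the UPR none rose in either segment. The medians were -0.02 in the jejunum and -0.01 in the ileum, and in the ileum the ATF6 relative Creb3l2 fell by 0.51 on the log2 scale (adjusted p = 0.022), where 5.68% of all genes fell. The mRNAs of the sensors themselves had log2 differences of -0.11 (Ern1), 0.45 (Eif2ak3) and 0.25 (Atf6) in the jejunum, with adjusted p of 0.308 or more. The activity of the sensors was not measured. Of the ER-associated degradation genes 1 of 14 rose in the jejunum, the ubiquitin-conjugating enzyme Ube2j1 (0.78, adjusted p = 0.0128), and 0 of 14 in the ileum. The integrated stress response acts through ATF4 and is started by PERK but also by sensors outside the ER, which these values do not separate. It had 2 of 11 genes higher in the jejunum, Asns (2.07) and Ddit4 (1.94), and 0 of 12 in the ileum. Its median was 0.49 in the jejunum, with 7 of 11 positive, beside 0.60 for the 10 genes, and -0.11 in the ileum. Its factor Ddit3 (CHOP) had log2 differences of -0.11 (adjusted p = 0.834) and 0.22 (adjusted p = 0.396).

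Some chaperones outside the ER rose in the jejunum. Of 14 cytosolic and mitochondrial chaperones tested, 3 rose there, Hsph1 (1.99, adjusted p = 0.028), Hspa1b (1.06, adjusted p = 0.014) and Hspa8 (0.89, adjusted p = 0.0249), all 14 had a positive log2 difference, and the median was 0.50. In the ileum Hsp90aa1 rose (0.66, adjusted p = 0.0488), and the median was 0.45 with 13 of 14 positive. The direction was as one-sided in liver, with 15 of 15 positive, a median of 0.41 and Hspb1 called (1.14, adjusted p = 0.0203). In muscle 16 of 16 were positive, with a median of 0.27 and none called. None of the 10 genes was called in liver or muscle. The direction was less one-sided in the duodenum, with 10 of 13 positive and none called, and in WAT, with 11 of 16 positive. In WAT 3 of the 16 were called higher (23.5% of all genes) and 4 lower (13.8%), among the latter Hspb1 (-1.075, adjusted p = 0.0154). In the duodenum the other ER folding factors had a median of -0.15, with 5 of 20 positive, beside -0.19 for the 10 genes, and in liver and WAT their medians were -0.01 and -0.01 beside 0.03 and 0.00. In liver 2 of 13 tested genes of the integrated stress response were called, Atf3 (1.79) and Trib3 (1.14), both higher. None of the 10 genes or of the other ER folding factors was called there. Of all liver genes 8.61% were called in either direction, and 81.7% of these were higher. In WAT, where 13.8% of all genes fell, the ER folding factors had 2 higher and 2 lower of 21, with Ero1lb at 1.85 (adjusted p = 0.00108) and the disulfide isomerase P4hb at -0.41 (adjusted p = 0.027). There the ligase Syvn1 (HRD1), a partner of Herpud1, rose by a log2 difference of 0.67 (adjusted p = 0.00526) and Sel1l, of the same complex, fell by 0.31 on the log2 scale (adjusted p = 0.0466).

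**Figure D4:**
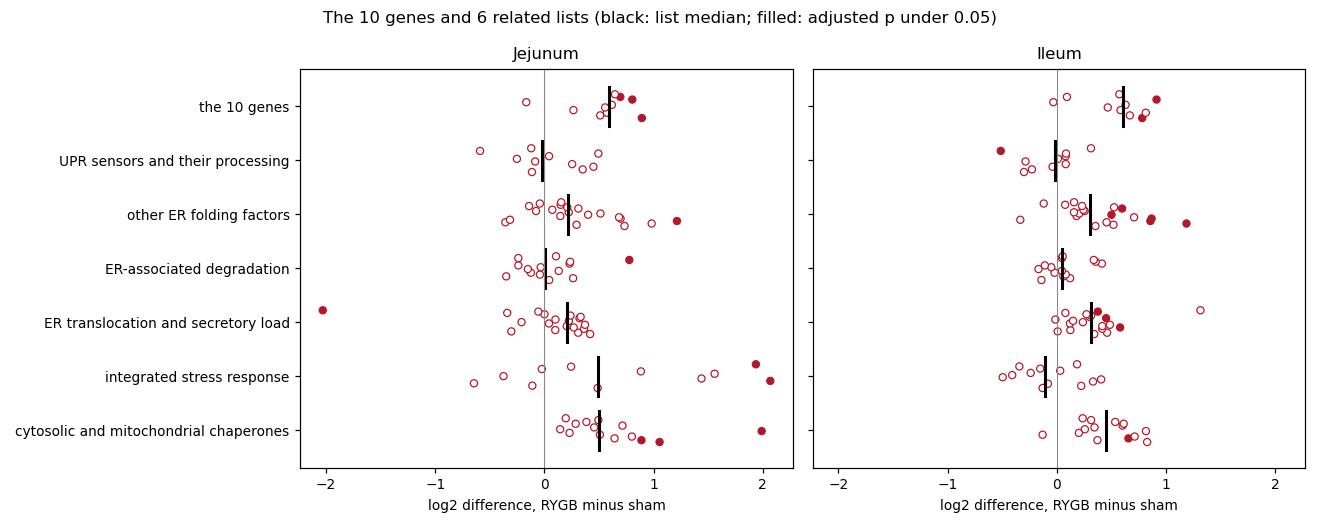
Log2 difference, RYGB minus sham, of each tested gene (points) in the 10 genes and 6 related lists (rows) in the jejunum and ileum, with black bars for list medians and filled points at an adjusted p under 0.05. The 10 genes have medians of 0.60 and 0.61, and the UPR sensors -0.02 and -0.01.

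To see which of the genes vary together apart from surgery, each group's mean was subtracted and libraries were correlated over all 48, for genes averaging 5 CPM or more in every tissue (8 of the 10 genes, Creld2 and Sdf2l1 being below it in muscle). These correlations are descriptions, since the libraries of a tissue share a table and its composition. The correlation with the mean of the other genes was 0.923 for Hspa5, 0.871 for Hyou1, 0.803 for Hsp90b1, 0.783 for Calr and 0.778 for Pdia4. For each of these 5 genes it was positive within all 6 tissues. It was 0.487 for Xbp1, 0.0485 for Herpud1 and 0.0165 for Dnajb9. Within groups Hspa5, Hyou1, Hsp90b1, Calr and Pdia4 were thus high or low in the same libraries. Over all 48 libraries Herpud1 and Dnajb9 did not follow them, but their correlations differed in sign between tissues. That of Dnajb9 was positive in 4 tissues, highest in liver (0.548), and negative in the jejunum (-0.365) and ileum (-0.405). That of Herpud1 was positive in 3 tissues, with 0.458 in WAT and 0.414 in liver. It was negative in muscle (-0.653), jejunum (-0.185) and ileum (-0.061). Whether the tissues differed was not tested.

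**Figure D5:**
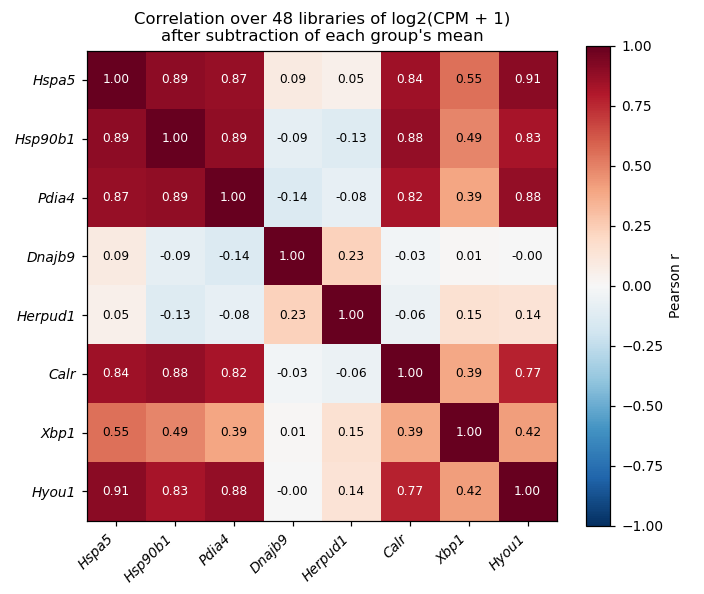
Pearson correlation of log2(CPM + 1) between 8 of the genes over 48 libraries after subtraction of each group's mean (colour scale from -1 to 1). Hspa5, Hsp90b1, Pdia4, Calr and Hyou1 correlate with one another at 0.77 or more, and Dnajb9 and Herpud1 with none of them above 0.14.

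Among 6129 other genes, whose median correlation with the mean of the 8 genes was 0.152, the 10 most alike were Dnajb11 (0.824), Pdia3 (0.808), Canx (0.802), Manf (0.785), Magt1 (0.743), Sec61a1 (0.742), Ddost (0.713), Slc33a1 (0.705), Hspa8 (0.685) and Dpagt1 (0.68). The first 4 are the ER J protein ERdj3, the disulfide isomerase ERp57, calnexin and a secreted protein of the ER stress response, and Sec61a1 is the channel of protein import into the ER. Of these 10, only Ddost had a negative correlation within a tissue (-0.516). The list of other ER folding factors had a median correlation of 0.505 over 17 genes, and the integrated stress response 0.0782 over 6 genes.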

How the data were processed

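Messenger RNA was measured in 48 libraries prepared with the Illumina TruSeq Stranded mRNA kit from RNA isolated with RNeasy columns. The authors deposited 1 table per tissue with CPM values per gene and library, rounded to 0.1. For the jejunum, the ileum and sham 4 of the liver the deposited columns were entered as a score, because repeated or incomplete lines bring their raw totals out of the range of CPM, and with 1 line kept per gene they were treated as CPM. HTSeq and the build GRCm38 are named in the submitters' processing notes. The aligner, its settings and the annotation were not given in the sources used here. Lines repeating a gene with equal values (1 to 408 per table) were used once, and 12 incomplete liver lines were left out. Depth was unknown, so no counting interval was computed.

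RYGB was compared with sham in each tissue on log2(CPM + 1), for genes averaging 1 CPM or more, with limma 3.58.1 (empirical Bayes with a trend, R 4.3.3) and Benjamini-Hochberg adjustment over all genes tested. A fold change is on that scale and understates changes of low genes. The fit was tested on simulated data. Tables and figures were made with Python 3.11.15, pandas 2.3.3, numpy 2.4.6 and matplotlib 3.10.9. Coordinates are those of GRCm38 (GENCODE M21) and promoters are from RefSeq (GRCm38.p6).

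The 10 genes, the related lists and the marker lists were chosen with earlier results of these data known. All 10 genes are named in the text. Of the related lists, counts are given, with at most the 3 called genes of largest change per list and tissue by name, and the 10 genes most correlated with the mean of these genes were named. The sensors, Ddit3 and Muc2 were named for their role after their values were seen. Alternatives were another pseudocount (0.1 CPM), no minimum and a minimum of 10 CPM, median-ratio scaling, lane as a covariate, the replicate number as a block, a fold change of at least 1.5, and each library left out. Leaving out RYGB 4 and RYGB 5 in the ileum, and RYGB 3, sham 1 and sham 2 in the duodenum, was chosen after seeing the data.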

Additional observations from a re-analysis of the deposited data

Results flagged for a closer look

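In 5 of 100 gene and tissue groups 1 library stood apart from the others of its group, which is the number chance gives (5). The figure given is the gap to the nearest library as a fraction of the group's range. Hspa5 in duodenum sham 2 was at 399.7 CPM against 586 to 628 CPM (0.846), and this library also had the highest Cela1 and Rnase1 levels. Sdf2l1 in muscle sham 3 was at 4.5 CPM against 2 to 2.3 CPM (0.843). Herpud1 in liver RYGB 2 was at 342 CPM against 146 to 168 CPM (0.836). Herpud1 in duodenum sham 4 was at 155 CPM against 78.2 to 87 CPM (0.845). Hyou1 in jejunum sham 3 was at 99.7 CPM against 66.9 to 70.5 CPM (0.869).

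Creld2 lay above sham in every RYGB library of the jejunum and ileum and below sham in every RYGB library of the duodenum. Its log2 differences were 0.62, 0.63 and -0.31, so that the jejunum and the duodenum differed by 0.929 and the ileum and the duodenum by 0.94. These differences between segments were not tested.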

How the results depend on the processing

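Over the 10 genes, 6 tissues and all alternative fits, 747 of 838 log2 differences kept their direction and their side of the threshold. Of the others 51 changed sign, all in genes that were not called, 28 lost a call and 12 gained one. The fold change of at least 1.5 is not among the 838. In the jejunum, lane as a covariate and leaving out RYGB 2 gave the same log2 differences, and both were counted. Calr in the ileum was called in every alternative. After median-ratio scaling 2 genes were called in WAT, Herpud1 higher and Xbp1 lower, where 40.2% of all genes were called in either direction. In the ileum 6 were called, where 12.3% of all genes were, and Herpud1 turned to 0.0315 there. Scaling moved the median of all genes in liver from 0.13 to 0.02. With lane as a covariate 0 of the 10 genes were called in the jejunum, and with a fold change of at least 1.5 as well 0 in WAT. With a minimum of 10 CPM the adjusted p of Calr in the jejunum was 0.0534. Leaving out 1 library at a time gave 0 to 1 called genes of the 10 in WAT, 0 to 2 in the jejunum and 1 to 5 in the ileum. Of all genes between 3106 of 13380 and 5587 of 13376 were then called in WAT. The numbers were between 462 of 10875 and 1015 of 10803 in the jejunum, and between 336 of 10715 and 958 of 10718 in the ileum. Herpud1 ranged from -0.603 to 0.0694 in the jejunum and from -0.149 to 0.0325 in the ileum. Without RYGB 4 and RYGB 5, a choice made by their Hspa5 values, Xbp1 in the ileum was at -0.0529, and the number of all genes called there went from 856 to 1984. What caused these changes was not tested. Over all genes, lane as a covariate lowered the number called in the jejunum from 1065 to 469, and scaling raised it in the ileum from 856 to 1318.

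The deviations of RYGB and sham libraries with the same number had correlations from -0.281 to 0.389, in no tissue over 0.1 for every number. With so few libraries per group these values cannot decide whether the numbers pair libraries, and the main fit used no pairing. With the replicate number as a block 1 of the 10 genes was called in the ileum, Calr, and 3 in the jejunum and 1 in WAT. Of all genes 682 of 10735 were called there in the ileum, 960 of 10854 in the jejunum and 4843 of 13379 in WAT. The number of all genes called went from 1016 to 1776 in liver, from 0 to 199 in muscle and from 1 to 268 in the duodenum. In the duodenum and the ileum lane could not be fitted as a covariate. Values rounded to 0.1 CPM limit the precision of Sdf2l1 and Creld2 in muscle.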

Other observations

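Single libraries stood out for most of the genes at once. Relative to their group means in liver, the 8 genes used for the correlations were on average 0.308 higher on the log2 scale in RYGB 3 and 0.291 lower in RYGB 1, and in sham they ranged from -0.24 in sham 2 to 0.236 in sham 1. In the ileum the same average ranged from -0.343 in RYGB 1 to 0.326 in RYGB 4, and in the sham libraries from -0.247 to 0.186. In liver the macrophage markers summed to 809 to 1918 CPM after RYGB and 386 to 677 CPM in sham, with 5 of 9 called higher, while none of the 10 genes was called there. Of all liver genes 8.61% were called in either direction, and 81.7% of those called were higher.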
